A study of Drosophila melanogaster with 51 samples.

Results

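Divergent gene pairs are nearby genes on opposite strands whose transcription start sites (TSSs) face away from each other. The minus-strand TSS lies to the left of the plus-strand TSS, and the TSS of another gene can lie between them. In basal Kc167 cells 1753 open regions lay at such pairs, out of 16118 regions in the list, or 10.9% of it. A region was taken when it overlapped, by at least 1 bp, the windows of 250 bp on either side of the TSS of both genes of a pair of protein-coding genes, with the TSSs at most 1000 bp apart. The annotation held 2667 divergent pairs among 13968 protein-coding genes, and 1324 of them had such a region. These are called member pairs, and they contained 2526 genes.

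The series applied ATAC-seq, which reads out where a transposase can insert into chromatin, to 51 libraries of Kc167, a Drosophila melanogaster line of embryonic origin. The regions came from 3 libraries of basal Kc167 cells, which were standard cells without an added construct and without copper, and which the authors had combined into 1 list. The other 48 libraries, from 12 stable lines with copper-inducible Hox proteins and partners, were not analysed here. Of 10 hemocyte (fly blood cell) markers, 8 had an open TSS, among them srp, Hml, Pxn and vkg, whereas He and NimC1 had none. An open TSS, meaning a region within 250 bp of it, was found for 47.8% of all protein-coding genes. The list gave positions without a height or read number, so the depth behind a region is not known from it, replicate errors cannot be given and differences were not tested over samples. Intervals are 95% Wilson intervals, which cover counting error only, since regions and genes are not replicates.

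In a divergent pair the upstream sequence of one gene is also the upstream sequence of the other, and the stretch between the TSSs can act as a promoter for both. A bidirectional promoter of this kind is common in the compact Drosophila genome, where many genes needed in every cell lie head to head. Active promoters have a stretch free of nucleosomes, which the transposase can reach, and well-placed nucleosomes on the gene side of the TSS. Many promoters of such housekeeping genes lack a TATA box, the element that places the start site through the TATA-binding protein. They use others instead, among them the DRE, which binds Dref and the insulator protein BEAF-32, and motif 1, which binds M1BP.

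The sequences between the TSSs of 8 pairs show the arrangements described below. They are the plus strand of the RefSeq Release 6 genome (dm6), from the minus-strand TSS to the plus-strand TSS, both bases included. Capitals mark matches to the DRE (TATCGATA), M1BP motif 1 (GGTCACAC), the E-box (CAGCTG), the GAGA motif (GAGAGAG) and the TATA box (TATAAA), on either strand. The first 4 pairs lay 45 to 115 bp apart with 1 region over both TSSs, and 3 of their sequences, those of CG17597/ScpX, Nph/Nlp and TrpRS/Vps16A, hold a DRE in the central of 3 equal parts.
Taf10b/Taf10: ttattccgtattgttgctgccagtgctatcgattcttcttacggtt
CG17597/ScpX: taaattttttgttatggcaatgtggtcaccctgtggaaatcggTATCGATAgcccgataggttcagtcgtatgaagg
Nph/Nlp: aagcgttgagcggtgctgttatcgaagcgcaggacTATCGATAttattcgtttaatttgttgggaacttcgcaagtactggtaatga
TrpRS/Vps16A: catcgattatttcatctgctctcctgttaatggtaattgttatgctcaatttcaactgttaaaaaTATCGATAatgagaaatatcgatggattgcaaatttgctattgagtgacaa
The next 3 pairs lay 219 to 294 bp apart with a region of its own on each TSS, and their matches lie near a TSS rather than in the middle.
Vps39/eIF1A: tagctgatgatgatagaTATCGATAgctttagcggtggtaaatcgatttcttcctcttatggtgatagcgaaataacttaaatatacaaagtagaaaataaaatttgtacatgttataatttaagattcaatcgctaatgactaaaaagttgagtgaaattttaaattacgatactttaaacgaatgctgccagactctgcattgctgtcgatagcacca
mRpL39/Prosbeta2: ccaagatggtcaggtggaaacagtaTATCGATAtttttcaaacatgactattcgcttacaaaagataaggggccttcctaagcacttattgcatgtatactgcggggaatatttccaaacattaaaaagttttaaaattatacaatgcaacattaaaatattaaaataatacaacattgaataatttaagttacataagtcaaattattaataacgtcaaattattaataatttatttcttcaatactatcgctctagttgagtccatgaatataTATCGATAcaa
CG32486/PAN3: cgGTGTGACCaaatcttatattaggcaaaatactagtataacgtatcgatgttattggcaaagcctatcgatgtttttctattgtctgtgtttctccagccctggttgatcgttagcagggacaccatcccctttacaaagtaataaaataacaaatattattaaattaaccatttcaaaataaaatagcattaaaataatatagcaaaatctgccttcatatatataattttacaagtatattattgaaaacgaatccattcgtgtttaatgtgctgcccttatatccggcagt
The last pair lay 258 bp apart and was still covered by 1 region.
MtnE/MtnD: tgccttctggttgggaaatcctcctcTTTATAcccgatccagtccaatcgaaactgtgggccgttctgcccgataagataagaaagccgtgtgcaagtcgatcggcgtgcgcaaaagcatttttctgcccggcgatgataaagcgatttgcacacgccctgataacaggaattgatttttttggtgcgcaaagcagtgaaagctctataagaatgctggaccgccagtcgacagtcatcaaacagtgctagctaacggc
Their positions are chr2L:2767845-2767890 for Taf10b/Taf10, chr2L:18831153-18831229 for CG17597/ScpX, chr3R:30004699-30004785 for Nph/Nlp and chr3R:9266904-9267019 for TrpRS/Vps16A. Those of the wider pairs are chr3R:18274446-18274665 for Vps39/eIF1A, chr3L:14999666-14999951 for mRpL39/Prosbeta2, chr3L:3070839-3071133 for CG32486/PAN3 and chr3R:20534704-20534962 for MtnE/MtnD. These 8 were picked after the matches had been seen.

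The member regions followed the TSSs closely. Of the 1753, 454 (25.9%, 23.9 to 28.0) covered both TSSs of a pair and 1162 (66.3%, 64.0 to 68.5) covered 1 of them. Another 97 lay on the gene side of a TSS without covering either, and 40 lay between the TSSs without covering either. Each of 1656 regions served 1 pair and 86 served 2. At mod(mdg4), which encodes an insulator protein and is annotated as many precursor genes with common TSSs, 2 regions counted for 21 pairs each, so those pairs are a single locus. Of the 1324 member pairs, 773 had 1 region that touched both windows, 522 had 2 such regions, 28 had 3 and 1 had 4.

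Whether the facing TSSs lay under 1 open region or under a pair of regions differed with their distance. Part of this change is imposed, since a region over both TSSs must be wider than their distance. Member regions had a median width of 185 bp. No region was narrower than 100 bp, which leaves little room for a region of its own on each of 2 close TSSs. The size of this part was not tested. To count each promoter once, pairs with the same facing TSSs were counted as 1, which left 2518 distinct TSS pairs, whether open or not. Classes of distance are given by their bounds, and each class after the first leaves out its lower bound. At 1 to 50 bp, 1 region covered both TSSs in 72.8% of TSS pairs (65.8 to 78.9, n = 173), and at 50 to 100 bp in 78.4% (72.7 to 83.2, n = 236). The share was 46.7% at 100 to 150 bp, 17.7% at 150 to 200 bp, 5.73% at 200 to 250 bp and 2.44% at 250 to 300 bp. A region of its own on each TSS was found in 0 of the 409 TSS pairs up to 100 bp apart and in 0.513% at 100 to 150 bp. This share was 4.96% at 150 to 200 bp, 35.7% (29.7 to 42.1, n = 227) at 200 to 250 bp and 49.8% (43.0 to 56.5, n = 205) at 300 to 350 bp. Between 350 and 600 bp it lay between 37.9% and 48.8%, and it was 13.3% (6.26 to 26.2, n = 45) at 950 to 1000 bp. Over all distances, 449 TSS pairs had 1 region on both TSSs, 691 had a region on each, 717 had 1 TSS covered and 661 had neither covered.

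Closed promoters were frequent in the range in which 1 region gave way to a pair of regions, and again among the most distant pairs. At 150 to 200 bp no TSS was covered in 48.2% of TSS pairs (40.1 to 56.4, n = 141), against 14.8% at 50 to 100 bp and 20.2% at 250 to 300 bp. The share was 42.03% at 600 to 650 bp and 48.9% (34.96 to 63, n = 45) at 950 to 1000 bp. At 150 to 200 bp the histone genes, part of whose repeated pairs lie at this distance, account for part of the count. Without them the share at 150 to 200 bp was 40.7% (32.4 to 49.5), a setting chosen after seeing the data. The distances themselves were not evenly spread, with 236 TSS pairs at 50 to 100 bp, 141 at 150 to 200 bp and 287 at 250 to 300 bp. The gap between neighbouring regions limits this result, since it was often under 100 bp. When regions up to 100 bp apart were joined, also chosen after seeing the data, the share of TSS pairs 200 to 300 bp apart with a region on each TSS was 12.5% instead of 42.2%, and that with 1 region on both was 34.2% instead of 3.89%. With regions under 150 bp left out, the former share was 20.8%.

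**Figure D1:**
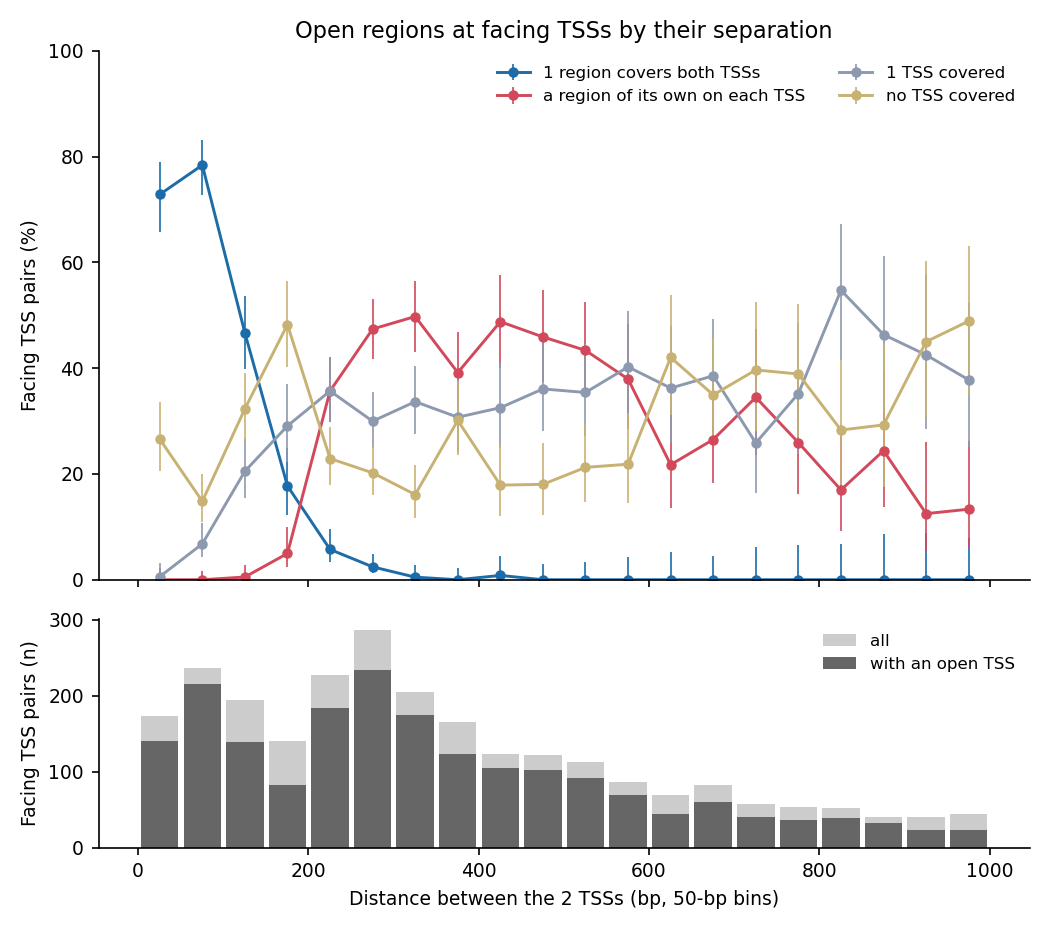
The upper panel plots the share of facing TSS pairs (%) in each of 4 arrangements against the distance between the TSSs in 50-bp bins, with 95% Wilson intervals as bars, and the lower panel plots the number of TSS pairs, in dark grey those with an open TSS. The share with 1 region on both TSSs is 78.4% at 50 to 100 bp and 2.44% at 250 to 300 bp, where the share with a region on each TSS is 47.4%.

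Coverage around the midpoint between the TSSs shows the same change base by base. At 1 to 100 bp the midpoint lay inside an open region in 79.2% of TSS pairs (75.02 to 82.9, n = 409), and at 100 to 200 bp in 54.2% (48.8 to 59.4, n = 336). At 200 to 300 bp it did so in 14.8% (11.98 to 18.1, n = 514), while 140 bp to the minus-gene side the share was 66.1% and 120 bp to the plus-gene side it was 59.3%. At 300 to 500 bp the midpoint was open in 7.95% of TSS pairs and the maxima of 61.7% and 63.3% lay 190 bp to either side. In the closest pairs coverage rose again inside the genes. It was 11.98% at 150 bp to the minus-gene side and 27.1% (23.1 to 31.6) at 260 bp, and 13.2% at 160 bp to the plus-gene side and 26.2% (22.1 to 30.6) at 260 bp. Such flanking regions stood beside Atg6/Pisd, dpa/didum and CG3032/CG4593.

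**Figure D2:**
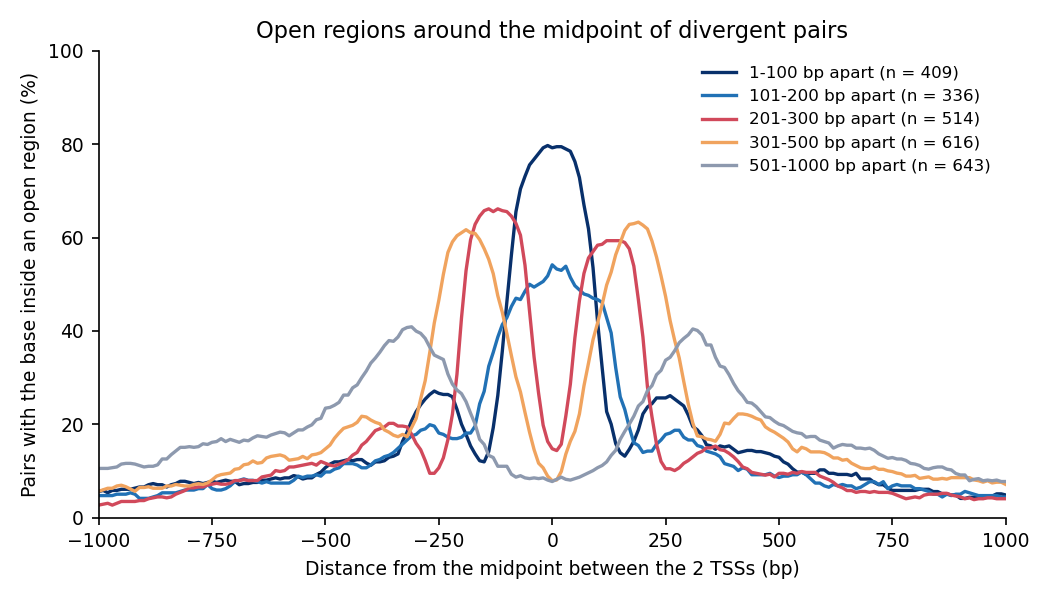
The share of TSS pairs (%) in which a base lies inside an open region is plotted against the distance (bp) from the midpoint between the TSSs, with 1 line for each class of distance between the TSSs and negative values on the side of the minus-strand gene. The line for 1 to 100 bp is close to its maximum at the midpoint (79.2%), and the line for 200 to 300 bp is close to a minimum there (14.8%).

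The regions reached similar median distances into the genes, with a spread around these medians. A region over both TSSs was 221 bp wide (median, quartiles 186 to 281, n = 449). It reached 75 bp (quartiles 55 to 94, range 0 to 945) past the minus-strand TSS and 74 bp (56 to 89, range 1 to 481) past the plus-strand TSS. The midpoint of the region lay 14.5 bp (median) from the midpoint between the TSSs. The median width of such regions was 190.5 bp for TSSs 1 to 50 bp apart, 219 bp at 50 to 100 bp, 260 bp at 100 to 150 bp and 316 bp at 150 to 200 bp, a rise that covering both TSSs partly imposes. Where each TSS had its own region, the medians of the widths were 184 bp on the minus-strand gene and 183 bp on the plus-strand gene (n = 691). These regions reached 81 and 80 bp into the genes, in the same order, and on the plus-strand gene 99 bp upstream. For comparison, regions over the TSS of genes with 1 TSS outside divergent pairs reached 87 bp downstream and 136 bp upstream and were 230 bp wide (medians, n = 1582). The gap between paired regions was 85 bp (median, quartiles 73 to 99, n = 81) at 200 to 250 bp, 89 bp at 250 to 300 bp and 116 bp at 300 to 400 bp, and 400 bp at 500 to 1000 bp. In 36 of the 691 a further region lay in the gap. The extension of each cut to 100 bp in the region calls limits how finely such edges can be read.

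**Figure D3:**
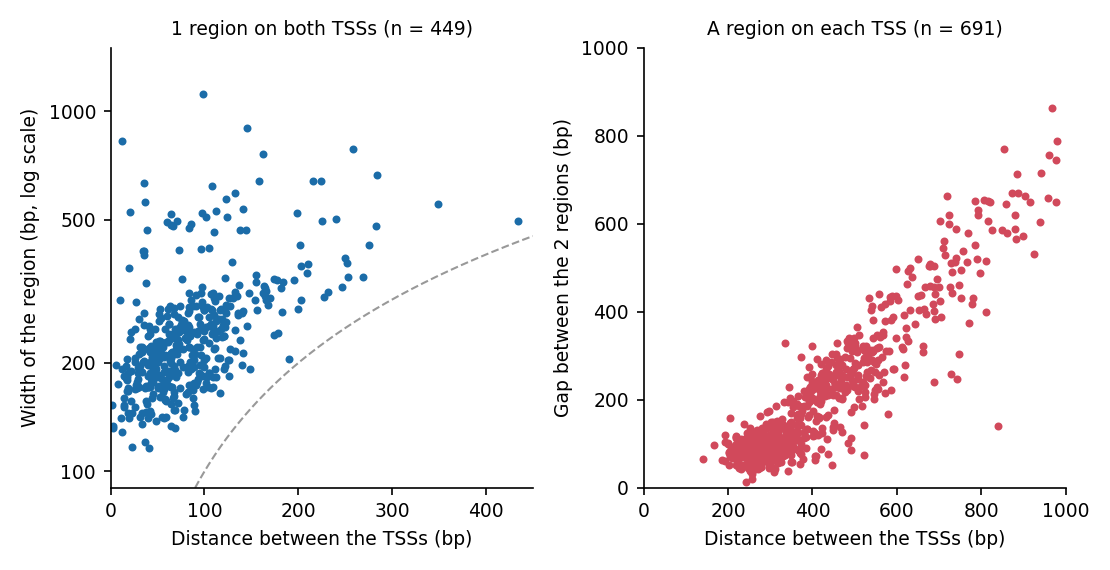
The left panel plots the width of the region (bp, log scale) against the distance between the TSSs (bp) for 449 TSS pairs under 1 region, with a dashed line where the width would equal the distance, and the right panel plots the gap between the regions (bp) against the distance for 691 TSS pairs with a region on each TSS. The regions on the left have a median width of 221 bp, and the gaps on the right have a median of 139 bp.

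Member regions as a whole were narrow. Their median width was 185 bp (quartiles 154 to 231), against 224 bp (167 to 359) for the 6601 regions at the TSS of 1 protein-coding gene and 265 bp for the 7562 regions at no protein-coding TSS. At least 500 bp were reached by 3.54% of member regions and by 14.2% of the regions at 1 gene. The 1753 regions were 10.9% of the list but held 7.78% of its open base pairs. The rule selects on the position of the edges, so the widths are a description, and with a TSS window of 100 bp the medians were 216 and 219 bp. TSSs of non-coding genes were few at these regions, 20 (1.14%, 0.740 to 1.76), against 4.24% (3.78 to 4.76) of the regions at 1 gene.

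Pairs under 1 region included genes of general functions whose TSSs almost touch. Atg6, an autophagy gene, and Pisd, which encodes a phosphatidylserine decarboxylase, had TSSs 1 bp apart under a region of 153 bp. The TSSs of dpa, which encodes the Mcm4 subunit of the replicative helicase, and didum, a myosin V, were 2 bp apart under a region of 134 bp, and so were those of Zpr1 and CG44532, under 132 bp. CG3032 and CG4593 lay 6 bp apart under 198 bp. All 4 of these regions were narrower than 221 bp, the median over TSS pairs of this arrangement. The paralogs Taf10b and Taf10, both subunits of TFIID and related complexes, lay 45 bp apart under a region of 206 bp at chr2L:2767763-2767968 that reached 82 and 78 bp into the genes. eIF2Balpha, a subunit of a translation initiation factor complex, and Vps13B lay 90 bp apart under 212 bp. The region of TrpRS, a tryptophanyl-tRNA synthetase gene, and Vps16A, a vesicle tethering gene, was 307 bp wide at 115 bp between the TSSs. RpS27 and Nup37, a ribosomal protein and a nucleoporin gene 144 bp apart, had a region of 220 bp that covered the RpS27 TSS and stopped 16 bp short of the Nup37 TSS.

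Pairs with a region on each TSS had the larger distances. Vps39, a subunit of a vesicle tethering complex, and eIF1A, a translation initiation factor, lay 219 bp apart with regions of 121 and 162 bp and a gap of 117 bp. Sec3, a subunit of the exocyst, and COX7B, of respiratory complex IV, lay 260 bp apart with regions of 169 and 133 bp and a gap of 88 bp. For mRpL39, a mitochondrial ribosomal protein gene, and Prosbeta2, a proteasome subunit gene, 285 bp apart, the regions were 236 and 166 bp wide and the gap was 81 bp. Ravus and Su(var)3-7, the latter a heterochromatin protein, lay 303 bp apart with regions of 174 and 196 bp and a gap of 82 bp. These 4 pairs were all members, because each of their regions touched both windows. Beyond the members, RPA1 and Mcm2, both replication genes, lay 519 bp apart with a gap of 286 bp between the regions, RpL9 and Nup154 lay 631 bp apart with a gap of 499 bp, and Rab18 and RpL35 lay 589 bp apart with a gap of 435 bp. The most distant pairs with separate regions were Smg5/Ance (984 bp), daed/mio (979 bp), CG30015/nclb (977 bp) and Hsp68/SMC1 (977 bp). Separate regions lie within 250 bp of each TSS and need not cover it, and the region near the Smg5 TSS did not cover that TSS. In daed/mio the gap was 789 bp, and in Hsp68/SMC1, a heat shock gene and a cohesin gene, it was 649 bp. The region on mio also covered the TSS of CG15386, 44 bp from that of mio, and was a member region through that pair.

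The widest member regions extended over 1 gene of the pair. The widest, of 1360 bp, began between Sfp26Ad, a seminal fluid protein gene, and Gpdh1, a glycerol-3-phosphate dehydrogenase gene, and reached 1262 bp past the Gpdh1 TSS, without covering the Sfp26Ad TSS. Regions of 1159 bp at CG32486/PAN3, 1127 bp at CG12104/CG18170, 1068 bp at cue/Psa and 1015 bp at CG11825/CG33474 likewise lay mostly over the minus-strand gene. Fer1HCH and Fer2LCH, the genes of the heavy and light chain subunits of secreted ferritin, lay 98 bp apart, and their region of 1116 bp at chr3R:30387233-30388348 covered both TSSs and reached 945 bp into Fer1HCH and 72 bp into Fer2LCH. Metallothionein genes, which bind copper and other metals, also had a wide region. That of MtnE and MtnD was 784 bp, covered both TSSs and reached 293 and 232 bp into the genes, in cells without added copper. Hsp67Bc and Hsp22, small heat shock genes, had 1 region of 495 bp that ended 6 and 54 bp past the TSSs. Their distance of 434 bp was the largest with both TSSs under 1 region. The TSS of CG4456, 225 bp from that of Hsp67Bc, lay between them under the same region. TrxT and dhd, germline thioredoxin genes 283 bp apart, had a region of 394 bp over the dhd TSS only.

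Pairs at the limits of the rule were both open and closed. Just inside 1000 bp, CG42866/CG16772 (994 bp) and CG34034/CG5849 (995 bp) had no open TSS. Just outside, CG14014/CG18269 and CG2217/mRpS18C, both 1003 bp apart, had none and 1. The largest distances in a member pair were 708 bp for GrlHz/CG42694, 698 bp for CG13954 and its neighbour, 672 bp for CG14053/Mct1 and 661 bp for Pp1-87B/NANS, and in none of the 4 did the region cover both TSSs. Overlap with the window was 1 bp for Snx21/aph-1 and Uch-L5/Jarid2, whereas a region fell 1 bp short for homer/Liprin-alpha and eIF4EHP/CG18428.

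Genes in divergent pairs, chosen by arrangement alone, more often had an open TSS than other genes. Of all 13968 protein-coding genes 47.8% had a region within 250 bp of a TSS. The share was 72.5% (71.3 to 73.8, n = 5052) for genes in divergent pairs, open or not, and 33.7% (32.7 to 34.7, n = 8916) for the others. With regions under 200 bp left out, the shares were 41.1% and 25.1%. Among genes with 1 annotated TSS the share was 67.0% against 25.9%, and among genes with more TSSs 84.5% against 58.9%. On the arms it ran from 65.5% on 2L to 82.1% on X and 21 of 22 genes on chromosome 4, against 31.9% to 37.1% outside pairs on the large arms and 69.0% on chromosome 4. Genes in pairs have a neighbour's TSS close by, whose region can fall in their own window, so the shares at short distances are not those of 2 separate promoters. Of the 2667 pairs, 1324 (49.6%, 47.7 to 51.5) were members, 390 had separate regions, 190 had only the minus-strand TSS open, 185 only the plus-strand TSS and 578 neither. Member pairs were 85.3% of the pairs 1 to 100 bp apart, 66.1% at 100 to 200 bp, 79.7% at 200 to 300 bp, 40.5% at 300 to 500 bp and 2.98% at 500 to 1000 bp. Their number depended on the window, with 22.7% of pairs and 582 regions at 100 bp on either side and 69.7% and 2951 regions at 500 bp.

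At 500 to 1000 bp the windows do not overlap, and both TSSs were open in 35.02% of consecutive divergent TSS pairs (31.4 to 38.9, n = 611), beside 28.4% for the product of the shares of single open TSSs. A single region can still touch both windows, as it did in 20 of the 672 divergent gene pairs at this distance (2.98%). The part of such regions in these values was not tested. Consecutive TSSs on the same strand at this distance were both open in 11.7% (8.84 to 15.5, n = 366), beside 6.05% for the product. With the plus-strand TSS to the left of the minus-strand TSS, both were open in 28.6% (17.85 to 42.4, n = 49), beside 16.5% for the product. For divergent pairs the values were 16.8% and 11.4% at 1000 to 2000 bp, and 9.48% and 9.73% at 2000 to 5000 bp.

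Genes for the basic machinery of the cell were frequent in member pairs, and genes for sensing and for the cuticle were rare. Member pairs contained 18.1% (17.5 to 18.7) of all protein-coding genes. They contained 20 of 36 spliceosome and Sm genes (55.6%, 39.6 to 70.5), among them SmB, SmD1, SmD2, SmD3 and SmE. The share was 47.9% of 73 mitochondrial ribosomal protein genes, 47.6% of 21 nucleoporin genes, 36 of 80 genes for RNA polymerases, Mediator and general factors, 43.8% of 32 replication genes, 42.4% of 33 tRNA synthetase genes and 41.7% of 96 vesicle traffic genes. Respiratory complex I and IV genes (33.9%), proteasome genes (33.3%), cytosolic ribosomal protein genes (29.4%) and translation factor genes (24.5%) lay closer to the share of all genes, and for the last list the interval (14.9 to 37.6) contained it. Heat shock and chaperonin genes had 14.3% (6.26 to 29.4). Chemoreceptor genes had 4 of 179 in member pairs (2.23%), among them Gr61a and Gr94a, and cuticle protein genes had 1 of 118. None of 28 Jonah and trypsin genes, which encode digestive proteases, were in them. Of 10 basement membrane genes none were in them either, but the interval (0 to 27.75) contained the share of all genes. Only 1 of these 10 was in a divergent pair. Although Col4a1 and vkg, the collagen IV genes, are neighbours with open TSSs, they were not a divergent pair by the rule, nor were Yp1/Yp2, Hsp70Aa/Hsp70Ab, LysD/LysE or E(spl)m3-HLH/E(spl)m2-BFM. The lists follow gene symbols and were not tested for enrichment.

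The same lists differed in how often their genes were arranged in divergent pairs at all. Spliceosome and Sm genes were in a divergent pair in 83.3%, nucleoporin genes in 85.7% and mitochondrial ribosomal protein genes in 79.5%, against 36.2% of all genes. Of those in a pair, 90%, 83.3% (15 of 18) and 93.1% had an open TSS, in that order, against 72.5% of all genes in divergent pairs. Proteasome genes in a pair were below that share, with 18 of 26 (69.2%). Whether in a pair or not, the first 3 lists had an open TSS in 88.9%, 80.95% and 83.6% of their genes, against 47.8% of all genes. Their openness was thus not particular to the genes in a pair. Chemoreceptor genes were in a pair in 14.5% and cuticle protein genes in 11.02%. The 115 histone genes were the exception, with 87 (75.7%) in a divergent pair, of which 3 had an open TSS, His2Av, His3.3A and His4r, which lie outside the repeated cluster. In the cluster His4 faces His3 and His2B faces His2A, and none of these pairs had a region. The authors kept only reads with a single alignment, which removes reads from near-identical copies such as these units, and the part of this step in the missing regions was not tested.

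**Figure D4:**
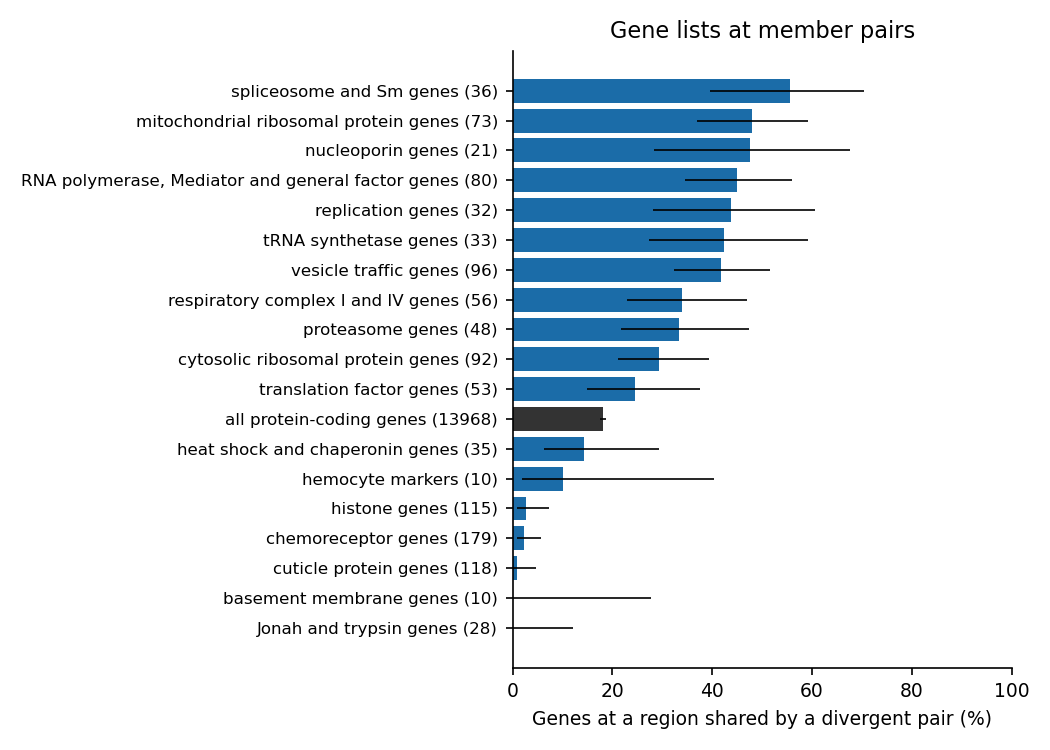
Bars show the share (%) of the genes of each list that lie in a member pair, with 95% Wilson intervals as lines and the number of genes in each list in brackets, and the dark bar shows all protein-coding genes (18.1%). Spliceosome and Sm genes lie at 55.6% and cuticle protein genes at 0.847%.

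Few divergent pairs of any kind joined genes with similar proteins, 128 of all 2667 pairs (4.80%, 4.05 to 5.68) by BLASTP. The number was 24 of 1324 for member pairs (1.81%, 1.22 to 2.68), 8 of 390 for pairs with separate regions (2.05%, 1.04 to 3.99) and 83 of 578 for pairs with no open TSS (14.4%, 11.7 to 17.5). Low uniqueness of the sequence was measured beside it. Windows with fewer than 90% unique 31-base words occurred in 0.680% of member pairs and in 13.5% of pairs with no open TSS, and their part in the difference was not tested. The most similar products in a member pair were those of CG17597 and ScpX, the latter a sterol carrier and thiolase protein, with 96.5% identity over 402 residues, and TSSs 76 bp apart under a region of 263 bp. Ravus and Su(var)3-7 followed with 58.8% over 51 residues, and qkr58E-1 and qkr58E-2, RNA-binding proteins, with 54.2% over 168 residues. Taf10b and Taf10 had 53.0% over 115 residues, and Nph and Nlp, nucleoplasmin-like histone chaperones, 51.4% over 111 residues.

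Member regions held the DRE and motif 1 more often than other regions, and GAGA repeats less often. Each motif was searched on either strand within 200 bp centred on the middle of a region, and matches of different motifs could overlap. A DRE was found in 14.7% of member regions (13.1 to 16.5, n = 1753), in 7.38% (6.77 to 8.03, n = 6601) of regions at the TSS of 1 gene and in 0.939% (0.745 to 1.18, n = 7562) of regions at no TSS. M1BP motif 1 was found in 15.0% (13.4 to 16.8), 7.68% and 0.489%, in the same order. The E-box had 22.6% (20.8 to 24.7), 14.8% and 11.1%. GAGA, bound by the GAGA factor, had 1.94% (1.39 to 2.70), 11.1% (10.4 to 11.9) and 12.8%. AP-1 (TGANTCA) had 3.08%, 4.04% and 6.81%. The letters AGATAA, which GATA factors bind, had 9.41%, 8.83% and 13.4%. The homeodomain core TAATTA had 10.7% (9.31 to 12.2), 6.92% and 7.09%, and the letters TATAAA had 23.7% (21.7 to 25.7), 16.8% and 16.7%. The median GC content of these windows was 40.5% in member regions and 45% in both other classes, and its part in these differences was not tested. When the whole region was searched, TATAAA was found in 21.3% of member regions and in 22.1% of regions at 1 gene, the reverse order, whereas the order of the DRE, motif 1 and GAGA did not change. The regions with most matches to the 9 motifs lay at heix/CG17328 and Targ1/CG10512, with 9 each, and CG10669/CG11902, with 8.

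**Figure D5:**
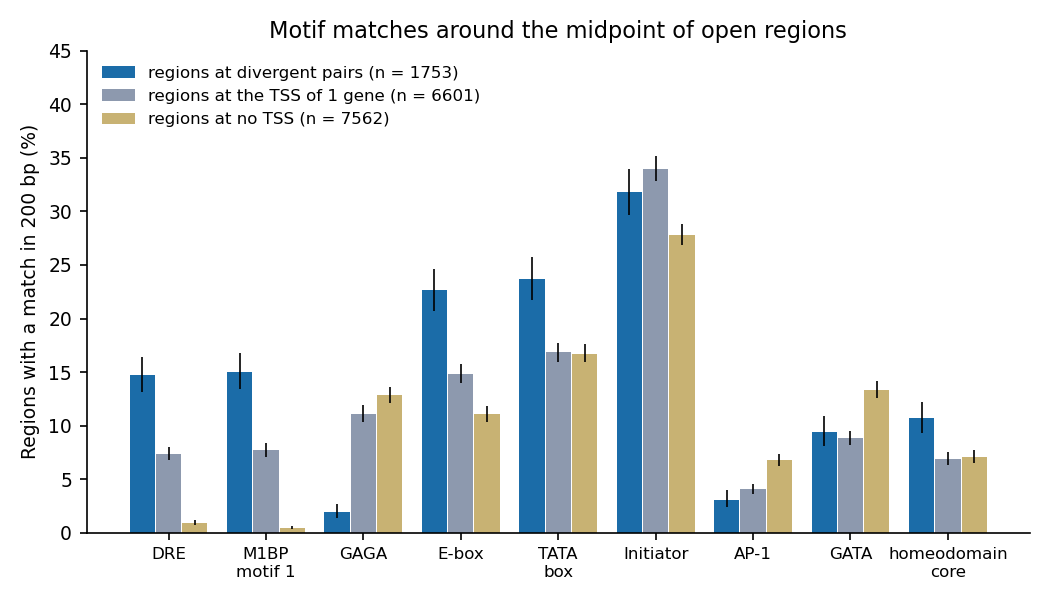
Bars show the share (%) of regions with a match to each of 9 motifs in the 200 bp around the midpoint, for regions at divergent pairs, at the TSS of 1 gene and at no TSS, with 95% Wilson intervals as lines. The DRE and motif 1 are highest at divergent pairs (14.7% and 15.0%), and GAGA is lowest there (1.94%).

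The DRE and motif 1 were also more frequent at open than at closed pairs, though most open pairs had no match to either one taken alone. In the 500 bp around the midpoint of TSS pairs up to 500 bp apart, a DRE was found in 25.1% (23.0 to 27.4, n = 1503) with an open TSS and in 12.4% (9.40 to 16.1, n = 372) without, and motif 1 in 24.1% and 6.99%. Without histone genes the closed pairs had 13.9% and 7.88% (n = 330). GAGA was found in 3.46% of open and 9.68% of closed pairs, but in 4.24% (2.54 to 6.99) of closed pairs without histone genes, so the excess lay in the histone units. TATA boxes in the position of a core promoter, on the sense strand and starting 20 to 40 bases upstream, were found at 1.22% (0.855 to 1.73, n = 2462) of the TSSs of member pairs. The value was 11.4% (9.55 to 13.5, n = 1012) at pairs with no open TSS and no histone gene, 4.13% (3.30 to 5.16, n = 1768) at open genes with 1 TSS outside pairs and 13.3% at closed ones. An Initiator (TCAGT) with its A within 10 bases of the TSS was found at 5.40% (4.58 to 6.37) of member TSSs, 14.9% (13.3 to 16.6) of open genes outside pairs and 12.2% of closed pairs without histone genes.

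Where each TSS had its own region, the DRE and motif 1 matches between the TSSs lay close to a TSS. With 1 region on both TSSs the median distance of a DRE to the nearest TSS was 22 bp (quartiles 14 to 39, 72 matches), and with a region on each TSS it was 37.5 bp (20.75 to 67, 196 matches). In closed pairs it was 24 bp (12 to 41.5, 43 matches). For motif 1 the medians were 21 bp (51 matches) and 36.5 bp (84 matches) in the first 2 arrangements. The stretches themselves had median lengths of 74 bp under 1 region and 366 bp with a region each. The distances possible therefore differed, no match in a short stretch can lie far from a TSS, and positions are not compared between the arrangements. Under 1 region, 34 of 72 DRE matches (47.2%) and 18 of 51 motif 1 matches (35.3%) lay in the central of 3 equal parts. Within the longer stretches, 11 of 196 DRE matches (5.61%) and 3 of 84 motif 1 matches (3.57%) lay in the central of 3 equal parts. The central part was also poor in matches in closed pairs, with 4 of 43 for the DRE (9.30%) and 0 of 12 for motif 1. A low central share was thus not particular to pairs with a region on each TSS. In mRpL39/Prosbeta2 a DRE starts at base 26 and another at base 276 of the stretch, within the regions on either side. TATAAA and TAATTA were farther from the TSSs of these longer stretches, with medians of 136 and 138 bp and with 48.7% of 928 and 54.6% of 377 matches in the central part. The median GC content of the 500 bp was 43.4% under 1 region and 36.2% with a region each, and its part in these values and positions was not tested. In these 500 bp a DRE was found in 24.5% (20.8 to 28.7) of TSS pairs under 1 region and in 27.8% (24.0 to 31.8) of those with a region each, and motif 1 in 23.2% and 27.8%. TATAAA was found in 44.3% (39.8 to 48.9) and 66.9% (62.7 to 70.9), and TAATTA in 26.9% and 39.96%.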

How the data were processed

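ATAC-seq libraries of basal Kc167 cells (3) gave the open regions. Per the labels and the study's methods, the authors used Bowtie 1.2.2 for alignment to the dm6 chromosomes, leaving out scaffolds, kept reads with 1 alignment, offset them by +4 and -5 bp, extended them by 5 bp on either side and called regions per replicate with MACS2 2.1.1.20160309 (shift -45, extension 100, q-value threshold 0.01). Regions found in 2 or more replicates were merged and deposited as positions only, from 100 to 2413 bp wide. Dropping reads with several alignments hides repeated sequence.

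Positions, counted from 1, were compared with Ensembl release 115 genes (BDGP6) and the RefSeq Release 6 genome. All annotated TSSs were used. Shares have Wilson intervals, and no test was made, because the replicates were combined. A window was unique when at least 90% of its 31-base words occurred once in the genome. Protein similarity used the longest coding sequence of each gene and BLASTP 2.17.0 (E-value threshold 1e-5). Scripts ran in Python 3.11.15 with NumPy 2.4.6 and pandas 2.3.3 and recovered the pairs, states and motifs planted in simulated data.

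The member pairs and gene lists were chosen with earlier results of these data known. Named pairs were those with the widest regions (6), the smallest and largest distances (4 each), the most distant separate regions (4), well-known pairs, pairs of 2 listed genes (up to 8), the highest protein identity (5), the most motif matches (3) and those at the 1000 bp limit. Other TSS windows, distances, region widths, start sites, uniqueness and motif windows were tried as alternatives.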

Additional observations from a re-analysis of the deposited data

How the results depend on the processing

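With 1 combined list, leaving out replicates was not possible, and shifts were judged against counting error only. No paired analysis was possible because the result comes from no test. With a TSS window of 100 bp, a shared region was found in 22.7% and both TSSs open in 53.6% of pairs, an open TSS in 67.2% of genes in pairs and 32.3% of the others, and 582 member regions, with median widths of 216 bp and of 219 bp at 1 gene. With 500 bp the values were 69.7%, 73.0%, 77.0%, 35.4%, 2951 regions and 235 bp at 1 gene. With TSSs at most 500 bp apart they were 65.4%, 73.9%, 77.9% and 36.4%. With regions of at least 200 bp they were 25.6%, 30.03%, 41.1% and 25.1%, 703 regions, 245 and 314 bp, and the DRE, GAGA and TATAAA shares were 16.8%, 3.56% and 18.6%. Unique windows gave both TSSs open in 66.3% of pairs and 74.7% of genes in pairs open. The outermost start alone gave 70.3% and 32.5% of genes and 212 bp at 1 gene. GAGA was found in 2.80% of whole member regions and TATAAA in 21.3%, and in 400 bp GAGA in 2.91%, TATAAA in 45.2% and the Initiator in 50.5%. Genes in pairs were open more often than the others in each of these settings.

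Added after seeing the data, leaving out regions under 150 bp gave 1 region on both TSSs in 69.2% (1 to 100 bp) and a region on each in 20.8% (200 to 300 bp) and 30.5% (300 to 500 bp). Joining regions up to 50 bp apart gave 1 region on both TSSs in 7.20% at 200 to 300 bp. Joining those up to 100 bp apart gave 34.2%, with a region on each TSS in 12.5% there and 35.1% at 300 to 500 bp. In the other 34 values no shift left the interval of the reported value or, for counts of regions, a factor of 1.5, and these included all 4 values without histone genes, all 4 with 1 facing TSS pair per gene pair and 6 of 8 with unique windows. Read depth was not used, and the replicate spread, unknown here, limits every value, as do the authors' calls, which extend each cut to 100 bp.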
